A study of Mus musculus with 30 samples.

Results

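Imprinted genes were examined in cultured spermatogonial stem cells (SSCs), the germ cells of the testis that renew themselves and give rise to sperm. The members were 9 genes listed by name: *Peg3*, *Mest*, *Snrpn*, *Impact*, *Peg10* and *Zrsr1*, which are expressed from the paternal allele in mouse tissues, and *Igf2r*, *Grb10* and *Cdkn1c*, which are expressed from the maternal allele in most of them. RNA abundance was taken from 7 of the 9 members, out of 13904 genes with a value, and mRNA half-lives from 5 members, out of 5806 transcripts. *Zrsr1* had half-lives only, *Snrpn*, *Grb10* and *Peg10* had abundance only, and *Impact* was not analysed here.

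The series holds 30 samples of SSC lines derived from testes of young mice and studies the RNA-binding protein NANOS2. RNA-seq was performed on 1 library of line 4, which is *Nanos2*TAG/+ (1 tagged and 1 wild-type allele; the heterozygous line below), and 1 library of line 5, which is *Nanos2*TAG/TAG (both alleles tagged; the homozygous line below). SLAM-seq, which follows the loss of 4-thiouridine label from RNA during a chase, was performed on 12 libraries of each of these genotypes, as 2 technical replicates at each of 6 chase times (0, 30, 60, 120, 540 and 1440 min). The other 4 samples are cross-linking libraries and were not analysed here.

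Both lines carry the tag (V5, c-myc, PreScission site, 6xHis and EGFP) at the start of NANOS2, so neither is a wild-type control and neither lacks NANOS2. To derive lines, C57BL/6 females with the tagged allele were mated to DBA/2J males for a mixed background. Such a mating alone gives at most 1 tagged allele per pup. The breeding that led to the homozygous line is not described, so the strain mix may differ between the lines. The lines were untreated apart from the SLAM-seq label, and were kept on mouse fibroblast feeders with GDNF, FGF2, EGF and LIF. The labels describe removal of the feeders beforehand where the methods describe sorted cells, and RNA of the heterozygous line was extracted with QIAzol but that of the homozygous line with Trizol. Genotype, line, any difference in strain mix and extraction reagent therefore cannot be told apart. Each genotype is 1 line, and no p-value is given for any difference between them. The values do not separate the maternal from the paternal allele.

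Genomic imprinting is the expression of a gene from 1 parental allele, set by DNA methylation laid down in the germline of the mother or the father. Primordial germ cells erase these marks, and male germ cells set paternal marks anew before birth, so spermatogonia are known to carry a paternal pattern at both alleles rather than the monoallelic pattern of body cells. Many imprinted genes act in growth: paternally expressed genes often promote it and maternally expressed genes often restrain it.

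Abundance was deposited as FPKM, reads per kilobase of transcript scaled to a depth. The depths that fit the values were 10908790 in the heterozygous line and 11738620 in the homozygous line. Whole reads were recovered for 100% of 13867 genes with an annotated length, within 0.01 of a read. These reads came to 10931439 and 11627842 in the same order, so the depths are scaling values and not read totals. All 12 measured markers of undifferentiated spermatogonia had an FPKM of at least 1 in both libraries. So did 11480 of all 13904 genes, and this alone does not show identity. *Uchl1* had 806 and 820.3, *Gfra1* 56.2 and 111, *Nanos2* 27.5 and 23.8 and *Id4*, the lowest, 1.76 and 1.59 (heterozygous line first). Markers of differentiating spermatogonia were present too, with *Kit* at 38.5 and 30.7, *Sohlh2* at 173 and 125, *Stra8* at 8.21 and 6.18 and *Dmrtb1* at 3.67 and 4.86. Fibroblast markers were also present: 15 of 17 had a value, none was at 0, and their summed FPKM was 447 and 662 in the same order.

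Sequence is shown first for the members whose promoters had the most CpG sites, since methylation of CpG is the mark that imprinting uses. RefSeq promoters (GRCm38.p6) matched 6 members by symbol, with 12 start sites in all. *Impact*, *Peg10* and *Cdkn1c* had no entry. The 250 bases before each start held between 2 and 40 CpG, with a median of 8, against a median of 6 and quartiles of 2 and 16 over all 32851 promoters. Below, CpG sites are in capitals, and the strand is that of the gene.
*Mest*, chr6:30737800-30738049, plus strand: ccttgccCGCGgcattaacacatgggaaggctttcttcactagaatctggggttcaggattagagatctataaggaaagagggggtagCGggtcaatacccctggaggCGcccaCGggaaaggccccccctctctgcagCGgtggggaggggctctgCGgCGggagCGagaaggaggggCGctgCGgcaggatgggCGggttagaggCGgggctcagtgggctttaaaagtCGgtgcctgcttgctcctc
*Igf2r*, chr17:12769707-12769956, minus strand: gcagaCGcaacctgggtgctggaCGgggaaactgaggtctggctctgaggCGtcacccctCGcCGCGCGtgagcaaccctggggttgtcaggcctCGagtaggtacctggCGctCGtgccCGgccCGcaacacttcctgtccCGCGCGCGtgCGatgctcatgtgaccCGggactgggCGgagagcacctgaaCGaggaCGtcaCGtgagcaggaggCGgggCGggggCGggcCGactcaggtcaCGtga
*Grb10*, chr11:12037421-12037670, minus strand: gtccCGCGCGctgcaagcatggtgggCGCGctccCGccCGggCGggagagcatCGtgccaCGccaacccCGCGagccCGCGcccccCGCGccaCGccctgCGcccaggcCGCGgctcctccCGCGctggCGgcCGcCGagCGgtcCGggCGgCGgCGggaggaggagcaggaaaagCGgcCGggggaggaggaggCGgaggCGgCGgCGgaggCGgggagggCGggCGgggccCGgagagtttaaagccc
The *Grb10* window held 40 CpG, more than 98.7% of all promoters, the *Igf2r* window held 27, more than 91.4%, and the *Mest* window held 14, more than 70.6%. The second *Grb10* start site had 8, and the other *Mest* start sites had 7 and 14. *Peg3* and *Zrsr1* had 8 each, and the 4 *Snrpn* start sites had 2 to 4. No methylation was measured here, so these counts describe the sequence alone. Whether an imprint lies within any of these windows was not examined.

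In the heterozygous line the members spanned a wide range of abundance, from *Snrpn* to *Igf2r*, and 5 of the 7 lay above the median of all genes in both lines. A median splits the genes of a line evenly, so with 7 members this count is not a result about them as a group. *Igf2r*, the mannose 6-phosphate receptor that clears the growth factor IGF2, was highest in the heterozygous line, and *Mest*, an alpha/beta hydrolase of the endoplasmic reticulum linked to growth, was highest in the homozygous line. The adaptor gene *Grb10* and the splicing gene *Snrpn* were the lowest in both. Intervals below are exact 95% Poisson intervals of the reads, which cover counting error only.

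*Peg3*, which encodes a large zinc-finger protein, had an FPKM of 25.2 (interval 23.8 to 26.6, 1201 reads) in the heterozygous line and 18.97 (17.8 to 20.2, 974 reads) in the homozygous line. These values lay above 67.9% and 62.5% of genes, respectively. The gene is on chromosome 7 of GRCm38, from 6703892 to 6730431 on the minus strand.

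*Mest*, on chromosome 6 from 30723547 to 30748465 on the plus strand, had an FPKM of 13.05 (11.1 to 15.3, 152 reads) in the heterozygous line and 88.8 (83.6 to 94.2, 1113 reads) in the homozygous line. It thus lay above 54.9% of genes in the former and above 89.3% in the latter. This was the widest gap between the lines among the members, and its intervals were far apart.

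*Snrpn*, on chromosome 7 from 59982495 to 60140219 on the minus strand, had an FPKM of 2.52 (1.90 to 3.27, 55 reads) and 2.38 (1.80 to 3.09, 56 reads) in the same order. It encodes SmN, a form of the Sm B protein of spliceosomal particles that is best known from neurons. Its level was far below that of *Snrpb*, the gene for the common Sm B protein, which had an FPKM of 200.1 and 214. *Snrpn* shares its transcript with *Snurf*, so reads from these genes cannot be told apart, and 93.8% of the 50-base stretches sampled from its exons occurred at 1 place only.

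*Peg10*, derived from a retrotransposon gag-pol gene, lies on chromosome 6 from 4747306 to 4760517 on the plus strand. FPKM was 19.5 (18.5 to 20.6, 1414 reads) in the heterozygous line and 25.7 (24.6 to 26.9, 2001 reads) in the homozygous line. It was the only member besides *Mest* with the higher value in the homozygous line, and the intervals did not overlap.

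The maternally expressed members all had the lower FPKM in the homozygous line. So did *Peg3*, *Snrpn* and 6876 of all 13904 genes, and this direction is not particular to these members. *Igf2r*, on chromosome 17 from 12682406 to 12769664 on the minus strand, had an FPKM of 61.9 (59.4 to 64.6, 2238 reads) and 49.3 (47.1 to 51.5, 1915 reads). *Grb10*, on chromosome 11 from 11930508 to 12038683 on the minus strand, binds insulin and IGF receptors and dampens their signal, and its FPKM was 7.27 (6.18 to 8.48, 160 reads) and 5.82 (4.89 to 6.88, 138 reads). *Cdkn1c*, on chromosome 7 from 143458339 to 143461050 on the minus strand, encodes the cyclin-dependent kinase inhibitor p57, and its FPKM was 22.9 (20.3 to 25.8, 280 reads) and 18.2 (15.9 to 20.6, 239 reads). Each was lower in the homozygous line, with intervals that overlapped between the lines for *Grb10* and *Cdkn1c* and did not for *Igf2r*.

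**Figure D1:**
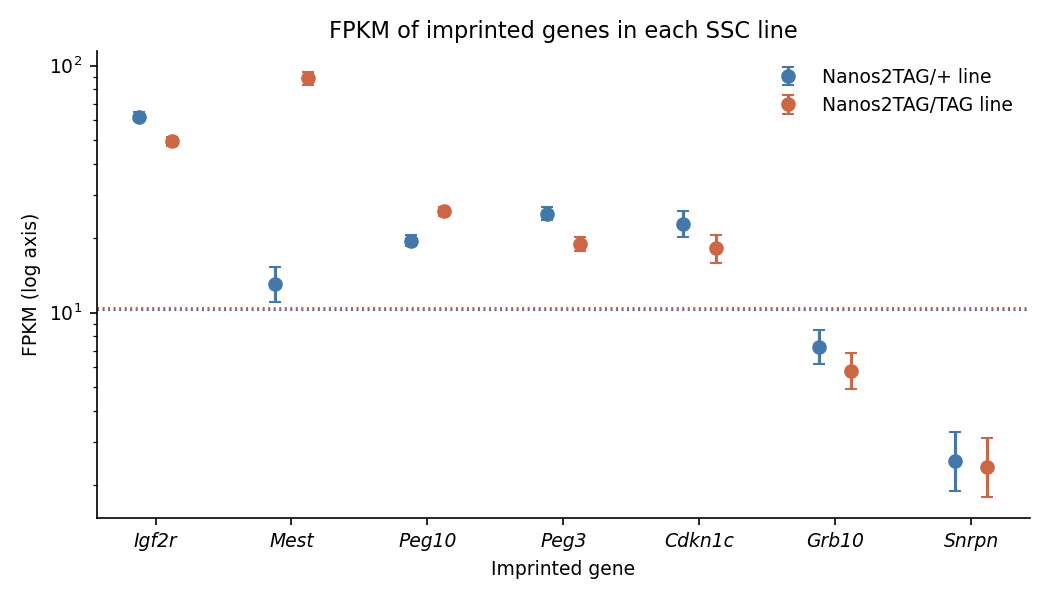
FPKM (log axis) of the 7 imprinted genes with a value, 1 library per line, with exact 95% Poisson intervals of the recovered reads; dotted lines are the median of all genes in each line. *Mest* is at 13.05 and 88.8, whereas the values of each other gene lie within 2-fold of each other.

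The order of the members by FPKM in the heterozygous line was *Igf2r*, *Peg3*, *Cdkn1c*, *Peg10*, *Mest*, *Grb10* and *Snrpn*, where the intervals of *Peg3* and *Cdkn1c* and of *Cdkn1c* and *Peg10* overlapped. For the homozygous line it was *Mest*, *Igf2r*, *Peg10*, *Peg3*, *Cdkn1c*, *Grb10* and *Snrpn*, where only *Peg3* and *Cdkn1c* overlapped among neighbours. This order depends on the length that reads are divided by. The deposited FPKM fits the mean length of the annotated transcripts, which for *Mest* was 1068 bases over 11 transcripts, whereas the longest was 2665 bases. Per kilobase of the longest transcript, and scaled to depth in the same way, the level of *Mest* was 5.23 and 35.6, that of *Igf2r* 23.1 and 18.4, and that of *Peg10* 19.4 and 25.6. *Peg10* was then second in both lines, and *Grb10*, at 2.90 and 2.32, overlapped *Snrpn*, at 2.43 and 2.30. A comparison of the same gene between the lines does not depend on this choice.

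Between the lines, *Mest* differed far more than any other member. *Mest* was 6.80-fold higher in the homozygous library (counting interval 5.74 to 8.12), a log2 difference of 2.76 with 0.1 added to each FPKM, and only 410 of the 13904 genes had a larger one. Of the 7 members, 1 was past 2-fold higher and 0 were past 2-fold lower in the homozygous line, whereas 13.5% of all genes were past 2-fold higher and 9.59% past 2-fold lower. *Mest* was also past 4-fold, as were 4.94% of all genes in that direction. A share of 1 in 7 members is near this background and is not a result about the members as a group.

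Differences of the other 6 members were small, with log2 values from -0.41 for *Peg3* to 0.39 for *Peg10*. *Igf2r*, *Grb10* and *Cdkn1c* had log2 differences of -0.33, -0.31 and -0.33. *Snrpn* had -0.08, with a counting interval of the ratio from 0.640 to 1.40, which includes equal levels, as did that of *Grb10*, from 0.634 to 1.01. The interval of *Cdkn1c*, from 0.665 to 0.946, did not include them. The median over the 7 members was -0.31, against 0.01 over all genes. Lower values in the homozygous line were seen for 5 of 7 members and for 6876 of 13904 genes.

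Most fibroblast markers and some markers of testis somatic cells were higher in the homozygous library, as *Mest* was. Of 15 genes listed as fibroblast markers, 6 were past 2-fold higher in the homozygous line (*Pdgfrb*, *Col6a1*, *Dcn*, *Vim*, *Thy1* and *Sparc*) and 0 were lower by that much. Over all genes, 13.5% were past 2-fold higher and 9.59% lower. The median log2 difference of the 15 was 0.81. The listed genes, *Thy1* among them, need not be particular to fibroblasts, and which cells their RNA came from was not tested. *Pdgfrb*, a receptor of mesenchymal cells, had an FPKM of 0.660 and 6.75, and the matrix protein gene *Sparc* had 73.9 and 158. *Col1a1* and *Fn1*, abundant products of fibroblasts, had 24.97 and 43.9 and 254 and 280.1. The summed fibroblast markers differed by 1.48-fold, less than *Mest*, and *Pdgfrb* alone by 10.2-fold, more than *Mest*. *Wt1*, a transcription factor of Sertoli and other mesodermal cells, had an FPKM of 2.51 and 19.6, a ratio of 7.83, the Sertoli factor *Sox9* had 2.19 and 4.49, and the steroidogenic gene *Star* had 4.62 and 1.20. *Amh*, *Cyp17a1*, *Hsd3b1*, *Lum* and *Acta2* were not analysed here. *Etv5*, a GDNF-induced transcription factor gene of spermatogonia, had 46.0 and 178, and *Ret*, for the signalling part of the GDNF receptor, had 73.2 and 181. They were the only ones of 12 markers of undifferentiated spermatogonia past 2-fold higher, and 7 of the 12 were lower in the homozygous library, with a median log2 difference of -0.10. The part of these cells and genes in the *Mest* difference was not tested, and more cells of a type and more RNA per cell cannot be told apart in bulk samples.

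A wider list of 51 other imprinted genes, 25 expressed from the paternal allele and 26 from the maternal allele, was set beside the members. Of these, 31 had an FPKM. Of 16 paternally expressed genes, 6 were past 2-fold higher in the homozygous line and 0 were past 2-fold lower, with a median log2 difference of 0.21. Among 15 maternally expressed genes, 1 was past 2-fold higher and 3 past 2-fold lower, with a median of -0.19. Over all genes 13.5% were past 2-fold higher and 9.59% past 2-fold lower, with a median of 0.01. Some of these genes were near the floor: *Dio3* and *Magel2* had 0 reads in the heterozygous library, where *Sgce* had an FPKM of 0.913. On the maternal side *Asb4*, *Klf14* and *Zim1* were under FPKM 1 in at least 1 library. With genes under FPKM 1 in either line left out, 3 genes of both lists together were past 2-fold higher and 1 lower. The background was then 7.94% and 6.52%. The lists were put together with values of these data known, and the difference between them was not tested.

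*Plagl1*, a zinc-finger gene that regulates other imprinted genes, had an FPKM of 2.62 from 28 reads in the heterozygous line and 53.2 from 612 reads in the homozygous line, a ratio of 20.3 (counting interval 13.9 to 30.8). *Dlk1*, a membrane protein of the Notch ligand family that restrains differentiation, had 8.75 from 192 reads and 48.2 from 1138 reads, 5.51-fold higher (4.72 to 6.45). *Dio3*, which inactivates thyroid hormone and lies in the *Dlk1* cluster, had 0 and 58 reads and was at least 17.97-fold higher against a floor of 3 reads in the heterozygous library. The counting interval of its ratio, which also counts the error of the 58 reads, starts at 14.2.

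Of the other paternally expressed genes past 2-fold, *Magel2*, of the Prader-Willi region, had 0 and 59 reads, at least 18.3-fold higher against the same floor, with a counting interval of the ratio that starts at 14.4. *Sgce*, for a sarcoglycan, had 19 and 97 reads, 4.74-fold higher (2.88 to 8.22), and *Rasgrf1*, for a RAS exchange factor, had 40 and 108, 2.51-fold higher (1.73 to 3.70). On the maternal side *Asb4* had 48 and 4 reads, *Klf14* 23 and 7, *Ube3a* 471 and 246, and *Zim1* 23 and 73. *Asb4* thus differed by 12.9-fold (4.73 to 49.3) and *Ube3a*, a ubiquitin ligase, by 2.06-fold (1.76 to 2.41), both lower in the homozygous line, and *Zim1* was 2.95-fold higher.

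**Figure D2:**
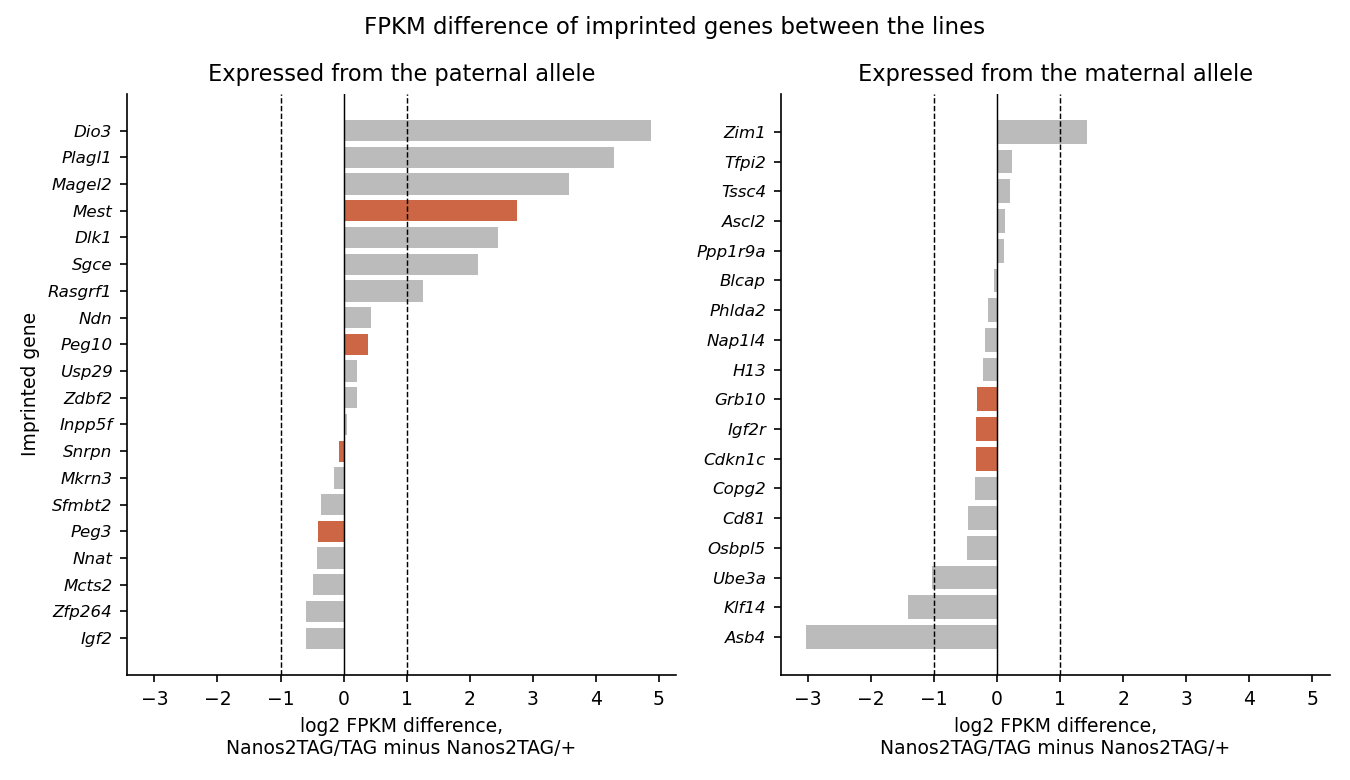
Bars are the log2 FPKM difference of 38 imprinted genes (homozygous minus heterozygous, 0.1 added to each FPKM), split by the expressed parental allele, with the 7 members in orange; dashed lines mark 2-fold. *Mest* stands with *Dio3*, *Plagl1*, *Magel2*, *Dlk1* and *Sgce* among paternally expressed genes past 4-fold, while the other members lie inside the dashed lines; *Dio3* and *Magel2* had 0 reads in the heterozygous library, so their bars depend on the added value.

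The neighbours of *Mest* in its imprinted cluster were lower in the homozygous library, where *Mest* was higher. *Copg2*, a coat protein gene that overlaps *Mest* on the other strand, had an FPKM of 69.8 and 54.7, against 13.05 and 88.8 for *Mest*. *Klf14*, 207.6 kb from *Mest*, had 0.690 and 0.195. Reads of *Mest* and *Copg2* in the overlap cannot be told apart where counting ignores strand, which the sources used here do not state.

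*Sgce* starts 0.1 kb from *Peg10*, and its FPKM was 0.913 and 4.33, a larger difference than that of *Peg10*, at 19.5 and 25.7. *Asb4*, 622.9 kb away in the same cluster, had 1.99 and 0.154, a difference in the other direction. *Ppp1r9a* and *Tfpi2*, which lie between or beside them, stayed within 2-fold. *Usp29*, which starts 0.1 kb from *Peg3* on the opposite strand, had 2.53 and 2.94, against 25.2 and 18.97 for *Peg3*. *Zim1*, 7.4 kb from *Peg3*, had 0.654 and 1.93, past 2-fold higher where *Peg3* was lower. *Zfp264*, 246.8 kb away, had 5.25 and 3.44. Near *Cdkn1c*, *Phlda2*, a placental growth regulator, had 30.5 and 27.7, *Nap1l4* 329 and 288, and *Igf2*, 791.5 kb away, 178 and 118. *Cd81* had 122.6 and 88.9 and *Osbpl5* 7.46 and 5.30. These 5 neighbours and *Cdkn1c* were lower in the homozygous library by less than 2-fold, whereas *Tssc4*, at 23.96 and 27.6, and *Ascl2*, at 5.84 and 6.34, were slightly higher. *Snurf*, *Airn*, *Kcnq1ot1*, *H19* and *Meg3* were not analysed here.

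Most genes that work with the members stayed within 2-fold between the lines, as did most of all genes. Over all genes, 13.5% were past 2-fold higher in the homozygous line and 9.59% past 2-fold lower, and the counts below are not results about these lists as groups. Among 8 measured genes of insulin and IGF signalling, which *Igf2r* and *Grb10* restrain, 1 was past 2-fold higher and 0 lower: *Irs1*, with 22 and 77 reads. The receptor gene *Igf1r* had an FPKM of 119.3 and 103.6, and the RNA-binding protein gene *Igf2bp1* had 169 and 215. Of 4 CDK inhibitor genes beside *Cdkn1c*, 1 was past 2-fold lower, *Cdkn1b* (p27), with 21.8 and 9.72, and 0 were past 2-fold higher. *Cdkn2a* was the highest of them, at 26.0 and 29.5, close to *Cdkn1c*. The 6 measured Sm core genes, partners of the *Snrpn* product, stayed within 2-fold. So did 4 genes set beside *Zrsr1* (*Zrsr2*, *U2af2*, *Rnpc3* and *Commd1*) and 3 genes of the GCN2 pathway, on which the *Impact* product acts. *Zrsr2*, the X-linked relative of *Zrsr1*, had an FPKM of 12.2 and 11.9, *Commd1*, the host gene of *Zrsr1*, 5.57 and 6.67, and *Eif2ak4*, which encodes GCN2, 12.5 and 20.7.

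Factors that keep imprints were also measured. Of 10 genes, 2 were past 2-fold higher in the homozygous line and 0 past 2-fold lower, with a median log2 difference of 0.02. Over all genes, 13.5% were past 2-fold higher and 9.59% past 2-fold lower, so these counts are not a result about the factors as a group. *Zfp57*, a zinc-finger protein that protects methylated imprints, had an FPKM of 7.67 and 23.0, and *Dppa3*, which shields maternal methylation in the zygote, had 1.92 from 16 reads and 12.7 from 114 reads. *Trim28*, the corepressor that *Zfp57* recruits, was the highest, at 952 and 815, and *Dnmt3l*, a cofactor of de novo methylation, was the lowest by mean FPKM, at 2.67 and 2.05. The maintenance methyltransferase gene *Dnmt1* had 241 and 278.

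mRNA half-lives of imprinted transcripts ranged from the short-lived *Zrsr1* to the long-lived *Cdkn1c*. Each is 1 fitted value per line, which the authors obtained from the conversion rates of that line and deposited without an error, so single differences have no measure of precision. The median of all 5806 transcripts was 224 min in the heterozygous line, where the middle 50% lay between 162 and 289 min. It was 226 min in the homozygous line, where they lay between 159 and 299.8 min.

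*Cdkn1c* had the longest half-life of the members, 413 min in the heterozygous line and 479 min in the homozygous line, longer than 91.2% and 91.9% of transcripts. *Mest* had 343 and 422 min, longer than 85.2% and 88.9%. *Peg3* had 373 and 277 min, longer than 88.2% and 69.1%. All 3 were above the median of all transcripts in both lines, and *Cdkn1c* and *Mest* were above the upper quartile in both.

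*Igf2r* had half-lives of 221 and 199.9 min, below the median of each line and longer than 48.9% and 39.6% of transcripts. *Zrsr1*, an intronless gene on chromosome 11 from 22972005 to 22976496 on the plus strand that encodes a relative of the splicing factor U2AF1, had 107 and 121 min. It was below the lower quartile in each line, longer than only 8.15% and 14.2% of transcripts. The related gene *U2af1* had 313 and 365 min. Members thus lay on both sides of the median, 3 above and 2 below in both lines. Of all 5806 transcripts, 2308 were above and 2308 below in both lines. The member counts are therefore not a result about the members as a group. The order of *Cdkn1c*, *Igf2r* and *Zrsr1* was the same in the lines while *Mest* and *Peg3* changed places.

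**Figure D3:**
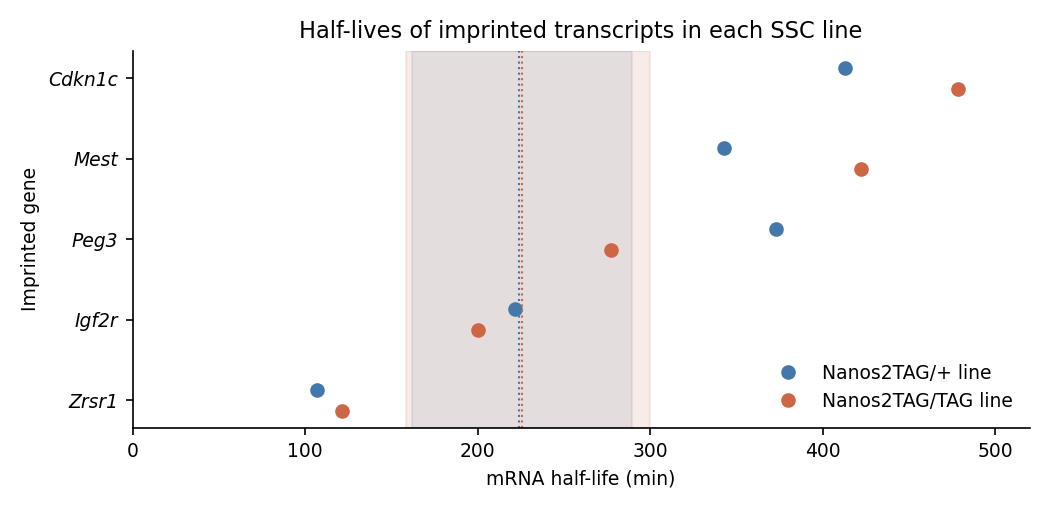
The authors' half-life in minutes of the 5 imprinted transcripts with a value in each line; dotted lines are the median and shaded bands the quartiles of all 5806 transcripts. *Cdkn1c* (413 and 479 min) and *Mest* (343 and 422 min) lie to the right of both bands and *Zrsr1* (107 and 121 min) to the left.

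Between the lines, 0 of the 5 members had a half-life past 1.5-fold longer and 0 past 1.5-fold shorter in the homozygous line, where 10% of all transcripts were past 1.5-fold longer and 10.7% past 1.5-fold shorter. With 5 members, these counts are near the background and are not a result about the members as a group. *Peg3* differed most, with a log2 ratio of -0.43 (-95.5 min, homozygous minus heterozygous). *Mest* was 1.23-fold longer, *Cdkn1c* 1.16-fold longer and *Zrsr1* 1.14-fold longer in the homozygous line, and *Igf2r* 1.11-fold shorter. The median log2 ratio was 0.18 over the 5 members and 0.04 over all transcripts.

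*Mest*, *Peg3* and *Igf2r* had half-life and FPKM differences of the same sign, and *Cdkn1c* had a longer half-life and a lower FPKM in the homozygous line. For *Mest* the 1.23-fold longer half-life stood beside a 6.80-fold higher FPKM. *Plagl1* and *Dlk1* gave a like picture, with half-lives of 194 and 240.0 min and of 404 and 621 min beside ratios of FPKM of 20.3 and 5.51. The signs were opposite for *Sfmbt2*, with 165 and 274 min but an FPKM of 121 and 94.2. They were also opposite for *Phlda2*, with 277 and 368 min but an FPKM of 30.5 and 27.7. The rest of the other imprinted genes with both measures had the same sign in both. These are values of 2 assays on the same lines, with different library kits, and no test was made of their relation.

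**Figure D4:**
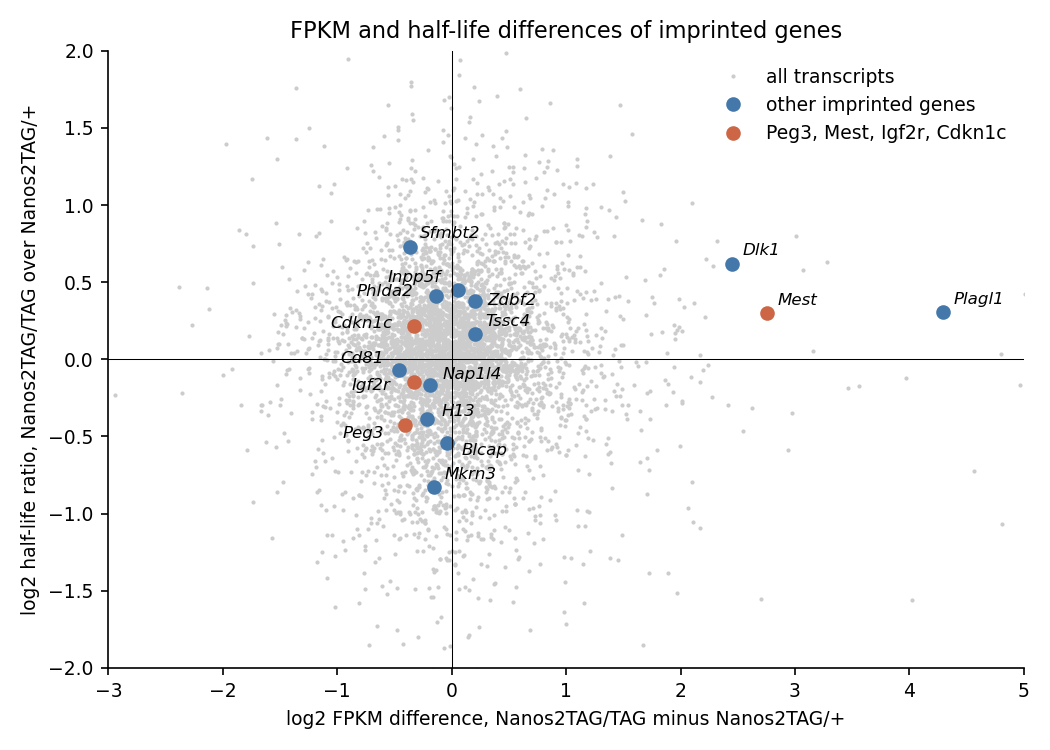
Each point is a transcript with both measures: the log2 FPKM difference (horizontal) against the log2 half-life ratio (vertical), homozygous against heterozygous; 34 of 5152 transcripts lie outside the axes. *Mest*, *Dlk1* and *Plagl1* lie far to the right with log2 half-life ratios of 0.30, 0.62 and 0.31, while *Peg3*, *Igf2r* and *Cdkn1c* lie near the centre.

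Of the other imprinted genes 13 had half-lives, with medians of 194 and 253 min. Longer half-lives in the homozygous line were listed for 6 of 7 paternally expressed genes, of which 2 were past 1.5-fold longer and 1 past 1.5-fold shorter, and for 2 of 6 maternally expressed genes, of which 0 were past 1.5-fold. Over all transcripts 3139 of 5806 were longer in the homozygous line, and 10% and 10.7% were past 1.5-fold longer and shorter. *Sfmbt2*, a polycomb-group gene, had 165 and 274 min, *Dlk1* 404 and 621 min, and *Mkrn3*, an intronless gene of the Prader-Willi region, 86.6 and 48.7 min. The differences of these lists from each other were not tested.

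Half-lives of partner transcripts gave further context. All 7 Sm core transcripts were above the median of all transcripts in both lines, as were 2308 of all 5806 transcripts. *Snrpb*, in the middle of the Sm core transcripts, had 460.0 and 428 min. *Cdkn1b*, a relative of *Cdkn1c*, had 196 and 346 min and was past 1.5-fold longer in the homozygous line while its FPKM was lower. *Cdkn1a* (p21) had 177 and 176 min, less than *Cdkn1c* in either line. *Gcn1l1*, which encodes an activator of GCN2, had 259.7 and 105 min.

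*Snrpn*, *Grb10* and *Peg10* had no half-life here. A half-life was listed for 11.2% of genes with a mean FPKM of 1 to 5, for 30.2% of those at 5 to 10 and for 57.2% of those at 20 to 40, so *Snrpn*, at a mean of 2.45, was in a range where few genes had one, and *Peg10*, at 22.6, in a range where most did. Median half-lives in the heterozygous line were 149 min in the lowest of these ranges and 217 min in the highest, and *Zrsr1*, which had no FPKM here, could not be placed in them.

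Genes with values most like a member's were found by distance over 4 values (log2 FPKM and log2 half-life in both lines, each divided by its SD over 5144 genes). The nearest to *Mest* were *Timp1* and *Actn1*, at distances of 0.608 and 0.686, and to *Peg3* they were *D030056L22Rik* and *Tbc1d1*, at 0.141 and 0.191. *Igf2r* was closest to *Gm16286* and *Mapkapk2*, at 0.116 and 0.130, and *Cdkn1c* to *Gm364* and *Cfl2*, at 0.140 and 0.255. *Timp1*, an inhibitor of matrix proteases, had an FPKM of 17.2 and 69.8 and half-lives of 434 and 494 min. The distances for *Mest* were the largest of these 4 members.

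Sequence words that the study assigns to NANOS2 were searched in the annotated 3′ untranslated regions of the 8 members other than *Impact* (GENCODE M21, sense strand, 1 coding transcript per gene). The words are AUGAAAU or AUGAAUU or AUUAAAU or AUUAAUU, and they may overlap each other. At least 1 word was present in 3 of the 8 members and in 37.7% of 21027 coding genes. *Mest*, *Peg3*, *Igf2r*, *Grb10* and *Cdkn1c* had 0. *Snrpn* had 4 in 745 bases, where 31.4% of genes with a like length had any, *Peg10* had 4 in 5166 bases, where 86.0% had any, and *Zrsr1* had 2 in 1982 bases, where 56.2% had any. The sites of *Snrpn* and *Zrsr1* and the site of *Peg10* nearest the stop codon are shown with 10 bases on either side, the word in capitals.
*Snrpn*, chr7:59982843-59982849, exon 10: uuccgguucaAUUAAAUauguuucacu
*Snrpn*, chr7:59982752-59982758, exon 10: auuauugcuuAUGAAUUaaaacaugga
*Snrpn*, chr7:59982534-59982540, exon 10: guuuaggugcAUUAAUUgguauuaaau
*Snrpn*, chr7:59982524-59982530, exon 10: auuaauugguAUUAAAUaaauuauaaa
*Zrsr1*, chr11:22975998-22976004, exon 1: agguaauauuAUUAAUUcuucaaagca
*Zrsr1*, chr11:22976474-22976480, exon 1: ccauaagcagAUUAAAUguuugcgcuu
*Peg10*, chr6:4759027-4759033, exon 2: uuagauuuacAUUAAUUguuuauauug
A match of letters is a description of the sequence and not of binding, which was not analysed here.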

How the data were processed

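RNA-seq (1 library per line) and SLAM-seq (12 libraries per line) of SSC lines were analysed from 3 tables. The authors deposited FPKM for both RNA-seq libraries; kallisto and DESeq2 are named in the submitters' processing notes, without versions, and the annotation is not given in the sources used here. The authors also deposited 1 half-life in minutes per transcript and line, from SlamDunk conversion rates and a fit of first-order decay by nls, made after technical replicates were collapsed. The line of each FPKM column and half-life set was read from its name, GG and Gp for FPKM; the labels call the half-life sets CTL and EXP, so the assignment rests on these names.

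Here, FPKM was multiplied by the mean transcript length of GENCODE M21 (GRCm38) and scaled until values were whole, which gave reads. Differences are log2 ratios with 0.1 added to FPKM, and log2 ratios of half-lives. Intervals are exact Poisson intervals (95%) for levels and exact Clopper-Pearson intervals of the share of reads for ratios. They cover counting error only. No test was made, since each genotype is 1 line and 1 library. Reads are given beside values that rest on few. Genes past 2-fold or 4-fold in FPKM or 1.5-fold in half-life were counted. CpG were counted in the 250 bases before RefSeq starts, and 3′ untranslated regions came from the APPRIS principal transcript or otherwise the longest. Genes of like length had 3′ untranslated regions within 1.25-fold. For uniqueness, stretches of 50 bases were sampled at steps of 10 bases along the exons and sought on both strands of the genome.

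The members and lists were chosen with earlier results of these data known. Genes named were the 9 members, the genes of each list past the fold or highest or lowest by mean FPKM, close relatives and neighbours of the members, and the 2 genes nearest to each member with 4 values; markers, and neighbours within 3 Mb, were picked for naming after their values were seen. The scripts were tested on simulated reads. Python 3.11.15, numpy 2.4.6, pandas and scipy were used.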

Additional observations from a re-analysis of the deposited data

How the results depend on the processing

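*Mest* was past 2-fold higher, and no member past 2-fold lower, with a pseudocount of 1, with FPKM divided by the median ratio of genes, and with FPKM rescaled to the same sum or the same upper quartile; the median log2 difference of the members then lay between -0.30 and -0.24. The background depended more on the choice. With a pseudocount of 1, 8.41% of genes were past 2-fold higher and 6.08% lower, with genes under FPKM 1 in either line left out 7.94% and 6.52%, after rescaling to the same sum 15.1% and 8.59%, and among genes with at least 50 reads, a choice made after seeing the data, 10.8% and 7.26%. Of the other imprinted genes, 7 higher and 3 lower became 5 and 1 with a pseudocount of 1 and 3 and 1 with the genes under FPKM 1 left out; *Ube3a* was within 2-fold after rescaling to the same sum or upper quartile. The number of members above the median FPKM in both lines was 5, and 4 with the genes under FPKM 1 left out. With half-lives divided by the median of each line the median log2 ratio of the members was 0.17, and 3 members stayed above the median under both other sets of transcripts. Levels per kilobase of the longest transcript were also added after seeing the data. Counting error limits *Snrpn*, with 55 and 56 reads, and the precision of a half-life is unknown. No paired analysis was possible because each genotype had 1 RNA-seq library and 1 set of half-lives.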
